A study of Homo sapiens with 6 samples.

Results

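In a brain-metastatic breast cancer cell line, 24648 cassette exons were measured by RNA-seq. By reads pooled over the samples, 1666 of them in 1133 genes were deeply read and only partly included. Their pooled inclusion differed by less than 0.05 when the RNA-binding protein RBM47 was expressed. By the mean sample rates as well, 1234 of the 1666 met the limits on inclusion and on the difference. A cassette exon is an exon that is either kept between its neighbours or skipped, and its inclusion rate is the fraction of transcripts that keep it. The exons were chosen by 3 values from the same comparison. Each had at least 200 reads in each group, a control rate over 0.10 and under 0.90 computed from the reads pooled over the control samples, and a pooled rate in RBM47 cells that differed from the control rate by less than 0.05. The 1666 exons were 64.4% of the 2587 exons that met the limits on reads and on the control rate. The other 921 had a pooled difference of 0.05 or more, 508 of them higher and 413 lower in RBM47 cells. Since the rule limits the difference, the small differences given here describe how the exons were selected and are not a finding.

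The cells, MDA-MB-231-BrM2a, are a brain-metastatic derivative of MDA-MB-231, an established human breast cancer cell line. The 3 control samples were cells with the empty vector pRetroX-Tight-Pur and were not clonal. The 3 RBM47 samples were a clone (wt#10) carrying Flag-tagged wild-type RBM47 in the same vector under a doxycycline-inducible promoter. All 6 samples received 10 ng/ml doxycycline for 3 days, so RBM47 expression and the origin from 1 clone cannot be told apart. The labels do not say whether the samples of a group came from separate cultures, so the spread between them may be technical.

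During splicing, the spliceosome recognises short signals at both ends of an exon, the acceptor site upstream and the donor site downstream. A pyrimidine-rich tract precedes the acceptor. Alternative exons often have signals that are recognised only some of the time, and RNA-binding proteins bound nearby raise or lower that share. RBM47 has RNA recognition motifs and is related to A1CF, the cofactor of the APOBEC1 RNA-editing enzyme, and to hnRNP Q. An exon whose length is a multiple of 3 can be skipped without shifting the reading frame of the protein.

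The splice sites of 8 of these exons are shown because they had the most reads among the named exons that could be placed on exactly 1 annotated exon, and their rates are described in the paragraphs that follow. The sequences are from GRCh37, read 5′ to 3′ on the strand of the gene, with the exon bases in capitals and the intron bases in lower case. The acceptor window has 20 intron and 3 exon bases, and the donor window has 3 exon and 6 intron bases. Every acceptor ended in ag and every donor began with gt. The exons were in HNRNPA2B1 (chr7:26237451-26237486, minus strand, 36 bases, coding), ALDOA (chr16:30077197-30077248, plus strand, 52 bases, noncoding), APLP2 (chr11:130005458-130005610, plus strand, 153 bases, coding, and chr11:129993507-129993674, plus strand, 168 bases, coding), HNRNPD (chr4:83277690-83277836, minus strand, 147 bases, coding), EIF3K (chr19:39123241-39123318, plus strand, 78 bases, coding), SRSF7 (chr2:38973286-38973321, minus strand, 36 bases, coding) and SPTAN1 (chr9:131390204-131390221, plus strand, 18 bases, coding, printed whole as well).
HNRNPA2B1 acceptor: agttttttttttccccccagAAA
HNRNPA2B1 donor: AAGgtactc
ALDOA acceptor: tccttgaatccactcgccagCCC
ALDOA donor: CAGgtgagc
APLP2 153-base exon acceptor: ccctgccctgtcttcatcagATG
APLP2 153-base exon donor: AAGgtgtgt
APLP2 168-base exon acceptor: ctctgaccattttcacacagCTG
APLP2 168-base exon donor: TGAgtaagt
HNRNPD acceptor: aacctattaatgtgctgcagGCC
HNRNPD donor: GCAgtaagt
EIF3K acceptor: tttgtctctgacctccacagTTA
EIF3K donor: CGGgtaacg
SRSF7 acceptor: aatttctcatgttttgacagCCG
SRSF7 donor: AAGgtaagc
SPTAN1 acceptor: cttggatctgctctccacagGAC
SPTAN1 donor: TGGgttaat
SPTAN1 whole exon: GACATACCTCCTCGATGG

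Before the rates are described, 2 features of the measurements bear on all of them. RBM47 replicate 2 stood apart from the other 5 samples. Over the 1666 exons its rates correlated with those of the others at r = 0.967 to 0.968, while the pairs without it had r = 0.973 to 0.984 (a description across exons, which are not independent replicates). It held 48 rates of exactly 0 or 1 (2.88%), against 8 to 17 (0.480% to 1.02%) in each other sample, and it lay farthest from its group mean for 701 exons, against 453 to 608 for each other sample. Some values that rest on it are therefore given with and without it, and the others include it. The transgene could not be checked, since the table held no event of the RBM47 gene. Of 10 genes expected high in this line, 9 had events. Their highest control reads at an event ran from 86 (S100A4) and 550 (MSN) to 171444 (VIM). Of 10 genes expected low, 3 had events. ERBB2 reached 747 control and 644 RBM47 reads, ESRP2 38 and 29, and KRT8 3199 and 6358. ERBB2 thus had more reads than S100A4 and MSN. Having an event does not itself show how highly a gene is expressed.

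The second feature is that the pooled control rate often lay above the mean of the sample rates. Which reads account for this gap is not known. For 503 of the 1666 exons (30.2%) the pooled control rate was over 0.05 above the mean of the 3 control rates, and for 0 exons was it over 0.05 below. In 218 exons the mean control rate lay outside the window of 0.10 to 0.90, 206 of them at 0.10 or less. For TMCO6 the rate was 0 in all 6 samples while the pooled control rate was 0.272. PTRH2, a mitochondrial peptidyl-tRNA hydrolase, had sample rates of 0.0851 to 0.112 and a pooled control rate of 0.517. Of the 1666 exons, 1234 (74.1%, in 896 genes) met the window and the limit of 0.05 on both the pooled and the mean sample rates. The depth of a single sample is not known here, because the table used gives reads as group totals.

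**Figure D1:**
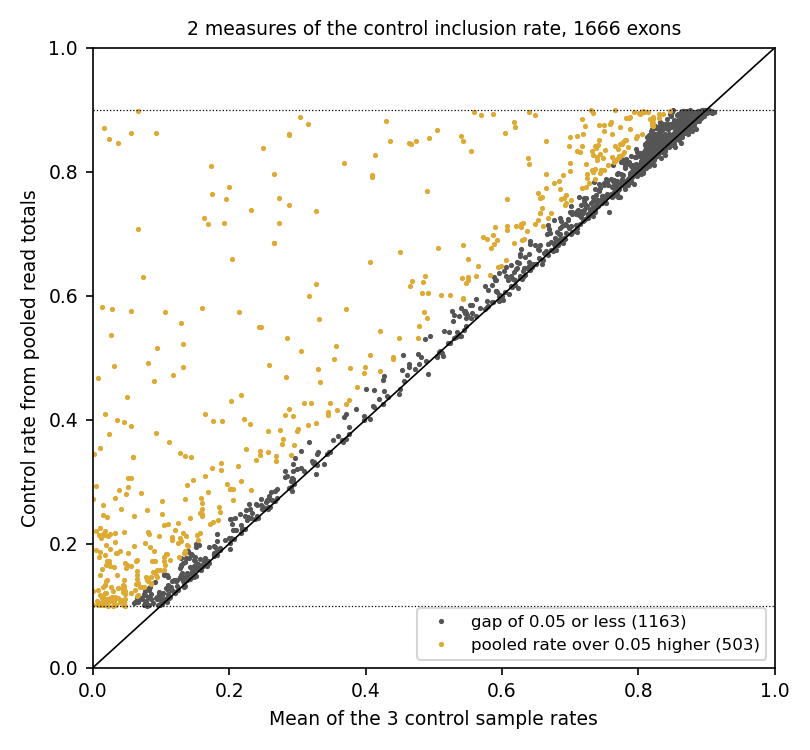
Control inclusion rate of each of the 1666 exons, as the mean of the 3 control sample rates (horizontal axis, fraction) and from the pooled read totals (vertical axis, fraction). The diagonal marks equal values, the dotted lines the limits of 0.10 and 0.90, and the 503 yellow points have a pooled rate over 0.05 above the mean, all lying above the diagonal.

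The exons covered a wide range of inclusion. The median pooled control rate was 0.753, with 340 exons under 0.25, 487 between 0.25 and 0.75, and 839 over 0.75. The median exon had 601 control and 535 RBM47 reads, and the totals ran from 200 to 19803 in control and to 17701 in RBM47 cells. The pooled rate was higher in RBM47 cells for 870 exons and lower for 795, and the difference was under 0.01 for 414. In 808 genes 1 exon met the rule, in 202 genes 2 did, and in 123 genes 3 or more. The events are not all independent, since 534 of the 1666 shared their outer boundaries with another of them and therefore the same skipping reads, and 1364 distinct outer spans remained.

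The replicate spread of these exons was of the same order as their differences. The median SD of the sample rates was 0.0317 in control cells and 0.0353 in RBM47 cells (3 samples each), and the median absolute difference between the group means was 0.0220. The difference lay within the larger of the SDs of the groups for 1332 exons (80.0%), against 284 of the other 921 (30.8%), a contrast that the rule itself fixes. The RBM47 SD was the larger for 926 exons and the control SD for 738. Without RBM47 replicate 2 the median SD of the RBM47 samples was 0.0226, and the 3 possible pairs of control samples gave 0.0235 to 0.0267. The other pairs of RBM47 samples, each of which includes replicate 2, reached 0.0290 and 0.0320. The larger RBM47 spread was thus not seen in the pair that leaves that replicate out.

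The spread fell with the number of reads. Among the 712 exons with fewer than 1000 reads over both groups the median SD was 0.0430 in control and 0.0485 in RBM47 cells. It was 0.0324 and 0.0341 for the 509 exons with 1000 reads or more but under 2000, and 0.0243 and 0.0256 for the 317 exons with 2000 or more but under 5000. Among the 128 exons with 5000 reads or more it was 0.0178 and 0.0174. The other deeply read alternative exons had median SDs of 0.0459 and 0.0523 in the lowest class and 0.0193 and 0.0225 in the highest, and with all 3 samples their medians lay above those of the exons described here in each read class. Without RBM47 replicate 2 the RBM47 medians in the lowest class were 0.0296 for the exons described here and 0.0351 for the others, and in the highest class 0.0116 and 0.0115. For exons whose mean rates lay in the window, the control median in the lowest class was 0.0498 here and 0.0488 in the others. This comparison was not tested.

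**Figure D2:**
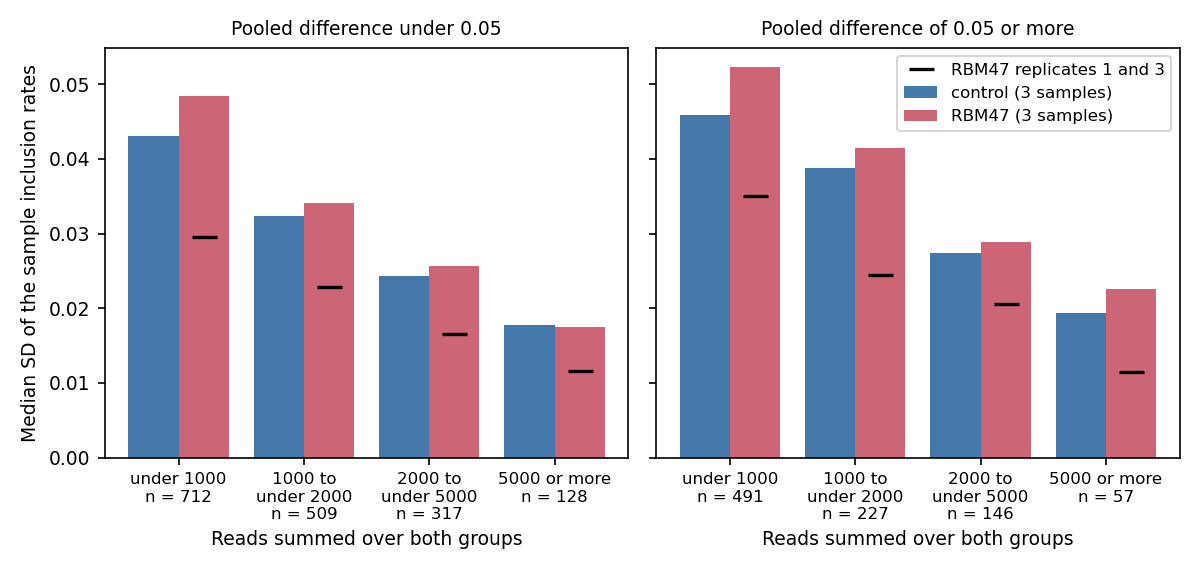
Median SD of the sample inclusion rates (vertical axis, fraction) by reads summed over both groups (horizontal axis), for the 1666 exons with a pooled difference under 0.05 (left) and the other 921 (right). Bars are the medians over exons in control (blue) and RBM47 (red) samples, and black marks are RBM47 replicates 1 and 3 alone. The medians fall from 0.0430 and 0.0485 to 0.0178 and 0.0174 in the left panel.

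The sample rates did not overlap between the groups for 167 of the 1666 exons (10.0%), beside 9.97% of the 24633 events with rates in the whole table, which include exons almost always kept or skipped. A limma model was fitted to the transformed sample rates of the 5991 events whose mean over all samples lay between 0.1 and 0.9. Among these the groups did not overlap for 17.9%, and among the 1409 exons described here that were tested they did not overlap for 123 (8.73%), a share that the rule limits. The model called 1.54% of the 5991, a call needing a Benjamini-Hochberg adjusted p below 0.05 together with means at least 0.2 apart. It called 0 of the 1409, a count the rule leads to. At an adjusted p under 0.05 with no limit on the difference the count was 0 (2.24% of all tested events), the lowest adjusted p being 0.136, and at an unadjusted p under 0.05 it was 30, or 2.13% (12.1% of all tested events). Another 257 exons had a mean rate outside the range and were not tested. Fisher's exact test (two-sided), which pools the reads and sees no replicate spread, gave an unadjusted p of at most 0.05 for 184 of the 1666 exons, beside 14.5% of all events. It runs on the same pooled reads whose difference the rule limits, so nothing is read from this count.

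A small difference is not the same as a difference shown to be small. The 95% limma interval of the difference, fitted on untransformed rates, lay wholly within 0.05 of 0 for 19 of the 1409 tested exons (1.35%), within 0.1 for 548 (38.9%) and within 0.2 for 1348 (95.7%). Its median half-width was 0.0841, from 0.108 for exons under 1000 reads to 0.0465 for exons of 5000 reads or more. For the other tested exons the interval reached past 0.05 in at least 1 direction, so a difference of that size in the sample rates was not excluded.

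The exons with the most reads are described first. HNRNPA2B1 encodes the nuclear ribonucleoproteins A2 and B1, which differ by the 36-base exon whose splice sites are printed above. Its inclusion rates were 0.349, 0.394 and 0.386 in control replicates 1 to 3 and 0.381, 0.421 and 0.409 in RBM47 replicates 1 to 3, from 19803 and 16499 reads. The groups overlapped, and the difference of 0.0277 had a 95% interval of -0.0162 to 0.0715. LGALS1, which encodes the secreted lectin galectin-1, had rates of 0.830, 0.823 and 0.825 in control and 0.842, 0.837 and 0.848 in RBM47 samples. There the groups did not overlap, and the difference of 0.0166 had an interval of -0.0189 to 0.0520. HMGA1, a chromatin architectural protein, ran from 0.775 to 0.820 in control and from 0.815 to 0.861 in RBM47 samples. Its pooled difference was 0.0448 at 16516 and 15750 reads. The groups overlapped, and the limma adjusted p from the sample rates was 0.489.

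EIF6, the factor that keeps ribosomal subunits apart, had the smallest difference in mean rates among the 8 exons with the most reads. Its rates were 0.815, 0.803 and 0.810 in control and 0.817, 0.801 and 0.808 in RBM47 samples. The groups overlapped, the SDs were 0.00644 and 0.00824, and the difference of -0.000599 had an interval of -0.0370 to 0.0358. The glycolytic enzyme ALDOA had rates of 0.337, 0.272 and 0.272 in control and 0.349, 0.267 and 0.312 in RBM47 samples, at its noncoding 52-base exon. Both groups spanned more than 0.06, and the difference of 0.0156 was below either SD (0.0374 and 0.0414). The events listed as SNORD49B, SNORD49A and C17orf76-AS1, a pair of small nucleolar RNAs and their host transcript, share 1 outer span and 1 set of skipping reads, so they count as a single locus. All of them were lower by 0.0241 to 0.0364 in RBM47 samples.

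The next exons were named because their pooled control rates lay nearest 0.5, and their small differences follow from the rule. RRBP1, a ribosome-binding protein of the endoplasmic reticulum, was at 0.510, 0.508 and 0.511 in control and at 0.524, 0.589 and 0.510 in RBM47 samples. RBM47 replicates 1 and 2 lay above the control range, replicate 2 by more. Its RBM47 SD was 0.0425 with that replicate and 0.0103 without it. MAPKAP1, a subunit of the TORC2 kinase complex, was at 0.480, 0.527 and 0.526 in control and 0.518, 0.450 and 0.530 in RBM47 samples. Here replicate 2 was the lowest RBM47 sample, and the SD was 0.0434 with it and 0.00894 without it. The histone chaperone NAP1L4 had means of 0.461 ± 0.0300 and 0.478 ± 0.0334 (SD, n = 3 each), and the mitochondrial protease PARL had means of 0.477 ± 0.0404 and 0.463 ± 0.00422. RHOC, a small GTPase, had means of 0.482 ± 0.0392 and 0.439 ± 0.0631. The interval of its difference was -0.122 to 0.0367.

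The exons of genes best known for alternative splicing are taken next. Of 66 deeply read alternative exons in the listed genes, 25 in 17 genes (37.9%) had a pooled difference under 0.05, beside 64.4% overall. This compares values that chose the exons, so no test was made. The list names genes, so an exon counted here need not be the one its gene is known for. For 3 of the 25 the groups did not overlap, beside the 9.97% of all events given above. These were an SRSF7 exon, MKNK2 and a PICALM exon.

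The first of them are in genes of adhesion and the cytoskeleton. SPTAN1, the alpha-II spectrin chain of the submembrane skeleton, was at 0.856, 0.875 and 0.855 in control and 0.859, 0.840 and 0.858 in RBM47 samples, at the 18-base exon printed above. The groups overlapped, and the interval of the difference was -0.0489 to 0.0292. PTK2, the focal adhesion kinase, had means of 0.722 ± 0.0263 and 0.714 ± 0.0210 at 1 exon and of 0.614 ± 0.0314 and 0.588 ± 0.0904 at another. DLG1, a polarity scaffold, had means of 0.851 ± 0.0300 and 0.853 ± 0.0536. The 273-base FN1 exon (chr2:216257654-216257926, GRCh37) is the extra domain B exon of fibronectin. It was at 0.116, 0.123 and 0.0765 in control and 0.119, 0.176 and 0.115 in RBM47 samples, with 632 and 238 reads.

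In genes of membrane traffic and organelle shape, DNM1L gave the least certain values. DNM1L encodes the dynamin-related GTPase of mitochondrial fission. Its 33-base exon was at 0.170, 0.354 and 0.309 in control and 0.270, 0.431 and 0.373 in RBM47 samples. The groups overlapped, and the difference of 0.0806 exceeded the limit of 0.05 that its pooled rates met, with an interval of -0.0497 to 0.211. SNAP23, a SNARE protein of membrane fusion, was at 0.879, 0.882 and 0.812 in control and 0.880, 0.779 and 0.883 in RBM47 samples. Its RBM47 SD was 0.0591 with replicate 2 and 0.00227 without it. In PICALM, a clathrin assembly protein, 2 events on 1 outer span had means of 0.106 ± 0.0150 and 0.0799 ± 0.00430, and of 0.161 ± 0.0340 and 0.135 ± 0.0256. EXOC7, a subunit of the exocyst, had means of 0.135 ± 0.0429 and 0.101 ± 0.0143 at 1 event and of 0.127 ± 0.0231 and 0.121 ± 0.0643 at another on the same span.

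The remaining exons from this list of genes were in genes of processing, signalling and chromatin. APLP2, a relative of the amyloid precursor protein, had 2 exons with 17630 and 21758 reads. The 168-base exon, which encodes its Kunitz protease inhibitor domain, was at 0.215, 0.220 and 0.236 in control and 0.230, 0.191 and 0.229 in RBM47 samples, and its pooled rates of 0.246 and 0.245 differed by -8.4e-05. The 153-base exon had means of 0.804 ± 0.0181 and 0.794 ± 0.0300. SRSF7, itself a splicing factor, was at 0.897, 0.886 and 0.902 in control and at 0.913, 0.914 and 0.914 in RBM47 samples for its 36-base exon, so that the groups did not overlap at a difference of 0.0188. MKNK2, a kinase that phosphorylates the cap-binding protein eIF4E, was at 0.180, 0.217 and 0.170 in control and 0.130, 0.133 and 0.134 in RBM47 samples. These groups did not overlap either, although the pooled rates of 0.397 and 0.366 met the limit. EZH2, the methyltransferase of Polycomb complex PRC2, had means of 0.679 ± 0.0392 and 0.712 ± 0.0507, and MAP4, a microtubule-associated protein, had means of 0.710 ± 0.0127 and 0.710 ± 0.0469 at its 93-base exon.

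**Figure D3:**
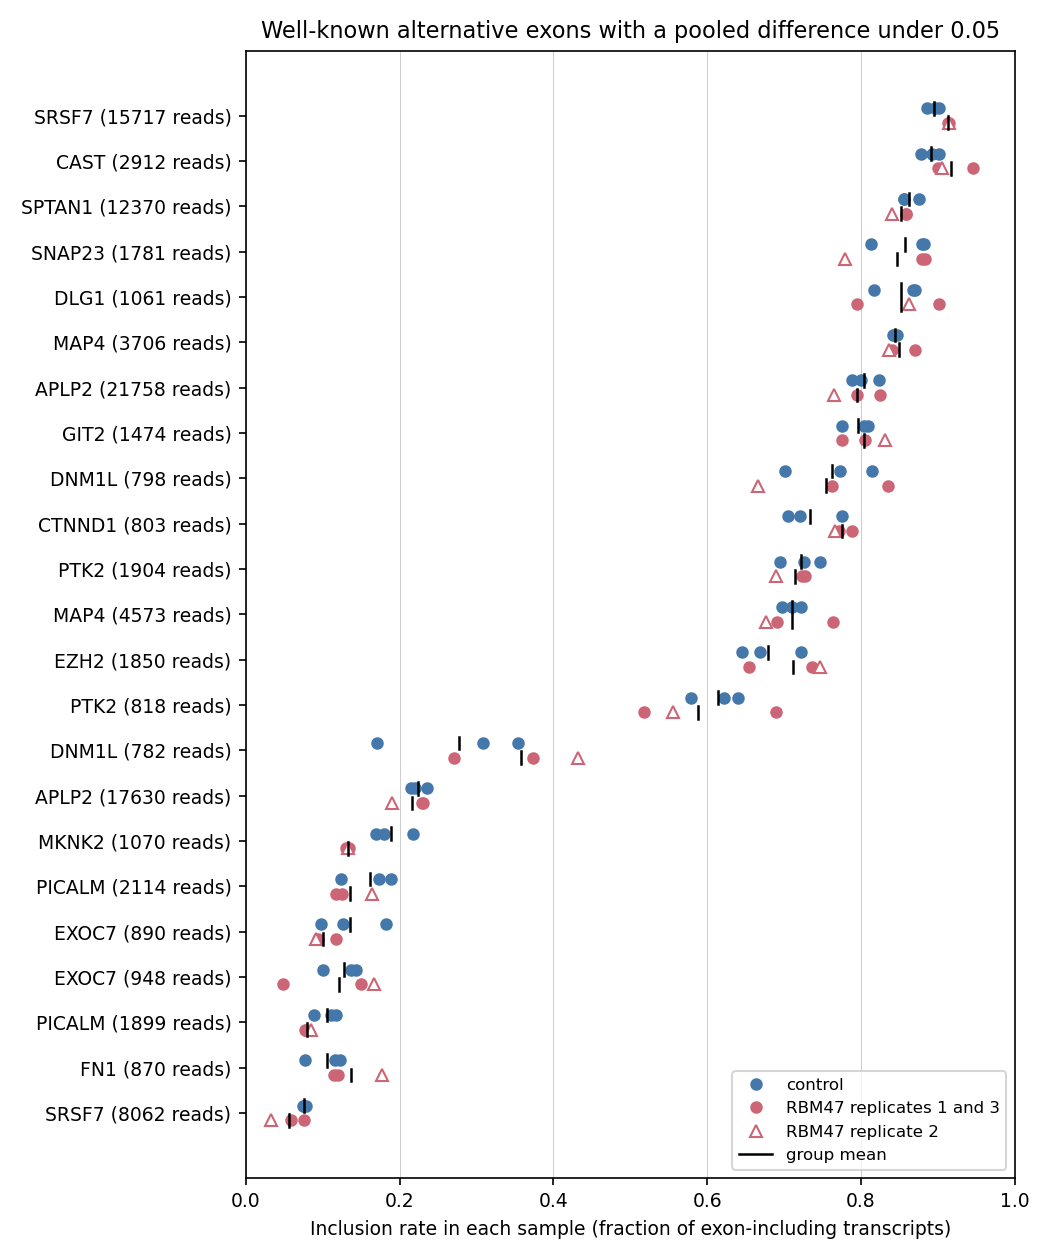
Inclusion rate (horizontal axis, fraction) of each sample for 23 of the 25 exons with a pooled difference under 0.05 in genes well known for alternative splicing. Exons are ordered by their control mean, with reads over both groups in brackets. Blue points are control samples, red points RBM47 replicates 1 and 3, open triangles RBM47 replicate 2 and black lines group means, and for 20 of the 23 exons drawn the groups overlap.

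By gene list, the share of deeply read alternative exons within the limit was highest, 77.6%, in chromatin genes (38 of 49). Leaving aside the genes well known for alternative splicing, it was lowest, 45.5%, in actin cytoskeleton and adhesion genes (25 of 55). It was 69.0% in ubiquitin and proteasome genes (49 of 71), 67.4% in translation and mRNA decay genes (31 of 46), 66.7% in mitochondrial and metabolic genes (46 of 69) and in cell death genes (8 of 12), 64.7% in kinase signalling genes (55 of 85) and 63.9% in splicing regulators (46 of 72). It was 54.5% in membrane traffic genes (48 of 88) and 50.0% in core spliceosome and helicase genes (8 of 16), beside 64.4% overall. These shares only describe how the rule divided the exons, and no list was tested. The lists were partly built from symbol prefixes, so KATNA1, which encodes a microtubule-severing subunit, was counted under chromatin, and the pseudogene SEC14L1P1 under membrane traffic.

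**Figure D4:**
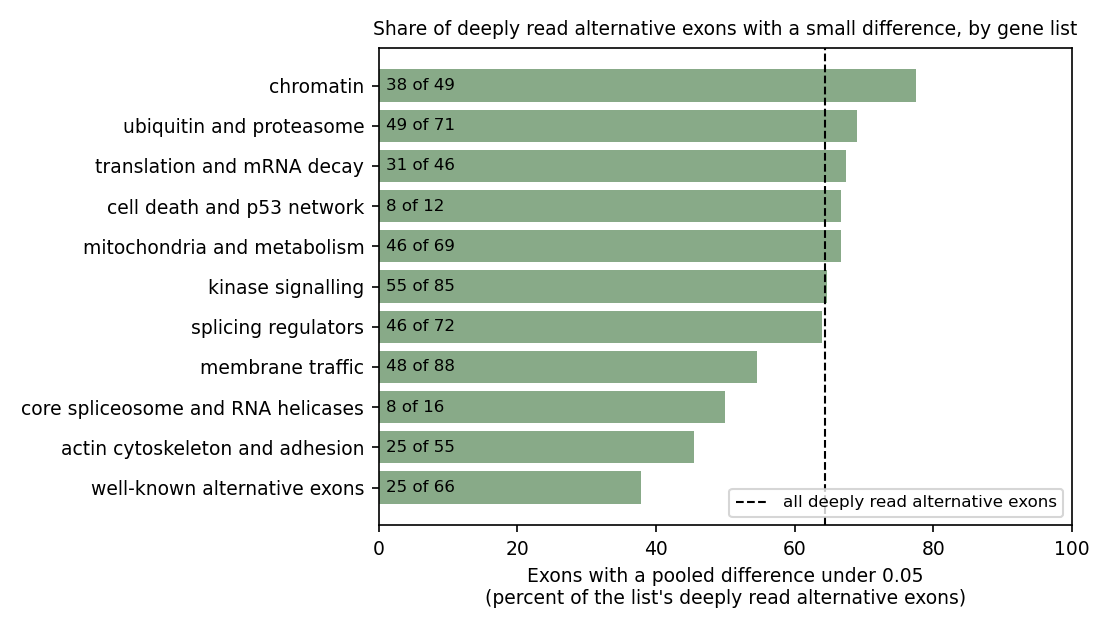
Share of the deeply read alternative exons of each gene list whose pooled difference was under 0.05 (horizontal axis, percent), with the counts written in the bars. The dashed line is the share over all 2587 exons, 64.4%. The bars run from 37.9% for exons of genes well known for alternative splicing (labelled well-known alternative exons) to 77.6% for chromatin.

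Splicing regulators held several of the exons with the most reads. HNRNPH1, which binds G-rich RNA, had means of 0.846 ± 0.0285 and 0.859 ± 0.0128 at 12010 and 9392 reads. HNRNPD, an AU-rich element binding protein also called AUF1, was at 0.304, 0.272 and 0.280 in control and 0.241, 0.234 and 0.262 in RBM47 samples at its 147-base exon. The groups did not overlap, and the difference of -0.0400 had an interval of -0.0800 to 6.0e-05. Over the 46 exons of this list the median absolute difference was 0.0228 and the groups did not overlap for 3, beside 9.97% of all events. LUC7L3, a component of the U1 snRNP, had the largest difference. It was at 0.309, 0.340 and 0.261 in control and 0.529, 0.290 and 0.567 in RBM47 samples, with pooled rates of 0.889 and 0.870. Only RBM47 replicate 2 lay within the control range. Without it the limma fit gave a difference of 0.245 (adjusted p = 0.0205), although the pooled difference was -0.0186.

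Among translation genes, EIF3K, a subunit of initiation factor 3, had means of 0.884 ± 0.0245 and 0.890 ± 0.0155, and EIF3M, another subunit, had means of 0.887 ± 0.0118 and 0.876 ± 0.0197. EIF4A2, an RNA helicase of the cap-binding complex, had means of 0.217 ± 0.0167 and 0.208 ± 0.0165, with a pooled control rate of 0.440. The ribosomal protein gene RPS10 had rates of 0.20, 0 and 0 in control and 0.333, 0.20 and 0.167 in RBM47 samples, from totals of 15 control and 23 RBM47 skipping reads, and pooled rates of 0.899 and 0.854. Without control replicate 1 limma called it at a difference of 0.233 (adjusted p = 0.0265), opposite in sign to the pooled difference of -0.0447.

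Chromatin and protein turnover genes come next. BRD8, a bromodomain protein, had means of 0.305 ± 0.0412 and 0.280 ± 0.0315, and the deacetylase HDAC3 had means of 0.877 ± 0.0263 and 0.887 ± 0.0401. EED, a core Polycomb subunit, had means of 0.808 ± 0.00850 and 0.848 ± 0.0269, and WHSC1, a histone methyltransferase, had means of 0.176 ± 0.0586 and 0.173 ± 0.0278. CHD3, a chromatin remodeler, had the largest difference of this list at -0.122, its groups did not overlap, and its pooled rates were 0.894 and 0.847. The proteasome subunit PSMD4 had the largest difference of the ubiquitin and proteasome list. It was at 0.529, 0.489 and 0.382 in control and at 0.321, 0.143 and 0.380 in RBM47 samples, and the groups did not overlap. Its pooled rates of 0.845 and 0.856 moved the other way. RNF181, a ubiquitin ligase, had means of 0.823 ± 0.0172 and 0.763 ± 0.0473. Its groups did not overlap, and the interval of the difference was -0.117 to -0.00441 (limma adjusted p = 0.384). PSMA6, a core proteasome subunit, had means of 0.872 ± 0.0284 and 0.849 ± 0.0297.

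Mitochondrial genes gave some of the deepest exons. NDUFB6, a subunit of respiratory complex I, was at 0.881, 0.892 and 0.876 in control and 0.871, 0.881 and 0.878 in RBM47 samples. The groups overlapped, and the interval of the difference was -0.0435 to 0.0310. Another NDUFB6 event was at 0.717, 0.718 and 0.710 in control and 0.765, 0.746 and 0.749 in RBM47 samples. There the groups did not overlap, and the difference of 0.0384 had an interval of 0.00026 to 0.0765 (limma adjusted p = 0.458). ATP5A1, a subunit of ATP synthase, had means of 0.895 ± 0.0180 and 0.930 ± 0.0173, and its groups did not overlap either. The mitochondrial ribosomal protein gene MRPL33 had means of 0.597 ± 0.0309 and 0.626 ± 0.00632. Among kinase and phosphatase genes, the catalytic subunit PPP1CA had means of 0.885 ± 0.0139 and 0.912 ± 0.010, with groups that did not overlap, and PPP4C had means of 0.867 ± 0.0387 and 0.888 ± 0.00866. BIRC5, which encodes the apoptosis inhibitor survivin, had 2 such events, with means of 0.863 ± 0.00589 and 0.891 ± 0.0113 at 1 and of 0.812 ± 0.00708 and 0.852 ± 0.0198 at the other.

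Several genes carried many of these exons. MFF, the receptor that recruits the fission GTPase to mitochondria, had 11 events on 6 outer spans, with control means from 0.133 to 0.821 and differences from -0.0190 to 0.0361, and the groups overlapped in each. EEF1D, an elongation factor subunit, had 8 events on 3 spans with differences from -0.0804 to 0.0287. DGUOK, the mitochondrial deoxyguanosine kinase, had 8 events on 4 spans. Its differences were all at or below 0, from -0.0707 to -0.000935, and the groups did not overlap for 4 of the 8, beside 9.97% of all events. GUK1, the guanylate kinase, had 6 events on 3 spans, and the groups did not overlap for 3. For comparison, the groups did not overlap for 9.97% of all events with rates and for 17.9% of the limma-tested events. Events on the same span share their skipping reads, so the counts for these genes are not of independent events.

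The smallest replicate spreads lay at rates near 0. By the rule for the smallest spread, the named exons were TMCO6, SFXN4, EEF1D, GLA, SF1 and ASPSCR1, and all lay at sample rates of 0.0199 or less. A rate near 0 leaves little room for spread. Further exons were picked for a small spread among those with mean control rates well inside the window (a choice made after their values were seen). Exons nearer its limits were left out, such as LGALS1, with a control mean of 0.826 and smaller SDs of 0.00373 and 0.00566. Among the exons picked, the smallest spread was at another EIF6 event. It lay at 0.722, 0.731 and 0.723 in control and 0.728, 0.742 and 0.725 in RBM47 samples. It was followed by DGUOK, ZC3H18, NDUFB6, GUK1 and PPDPF. These exons were picked for a small spread, which makes it easier for groups to lie apart, so nothing is read from the next count. The groups overlapped for EIF6 and PPDPF and did not overlap for the other 4, beside 9.97% of all events. The DGUOK rates, for example, were 0.280, 0.260 and 0.269 in control and 0.245, 0.236 and 0.229 in RBM47 samples. The largest spread was at SNHG4, a host transcript of a small nucleolar RNA, at 0.286, 0.650 and 0.771 in control and 0.667, 0.333 and 0.60 in RBM47 samples. HEXDC ran from 0.333 to 0.647 in control and from 0.273 to 0.714 in RBM47 samples, with 204 and 217 reads. For the named exons of MTERFD2, TRIM68 and RHBDD2 the larger SD was 0.195, 0.195 and 0.194. Without RBM47 replicate 2 the RBM47 SD fell from 0.176 to 0.0471 for SNHG4 and from 0.195 to 0.0574 for MTERFD2. It rose from 0.239 to 0.312 for HEXDC and from 0.194 to 0.268 for RHBDD2.

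At the limit itself, BIRC5, MBD1 and ORAOV1 lay just inside with pooled differences of 0.0499, 0.0499 and 0.0498. UBTF, AURKA and IL17RC lay just outside with 0.050, 0.0503 and -0.0503. The mean sample differences of the former were 0.0404, 0.0176 and 0.0890, and those of the latter 0.0291, 0.0723 and -0.0702. Over all 1666 exons the mean sample difference was 0.05 or more in size for 225, 0.1 or more for 19, and 0.2 or more for 0. The highest was at NABP1, a single-stranded DNA binding protein, at 0.119, 0.194 and 0.194 in control and 0.261, 0.385 and 0.458 in RBM47 samples. Its groups did not overlap, while its pooled rates of 0.716 and 0.751 met the limit.

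A pooled difference under 0.05 did not mean similar read totals. Total reads over the 1666 exons were 0.934 times as many in RBM47 as in control cells, against 0.910 times over all events. The median ratio was 0.931 for these exons and 0.856 for all events. Total reads also follow library size and were not normalized. Reads were at least 2-fold higher in RBM47 cells for 8 of the exons and at most 0.5 times as many for 64. LSR, the lipolysis-stimulated lipoprotein receptor of tricellular junctions, had 360 control and 952 RBM47 reads (a ratio of 2.64) with mean rates of 0.102 ± 0.0325 and 0.0867 ± 0.00931. FGF1, a fibroblast growth factor, had 366 and 933 reads (2.55) with mean rates of 0.771 ± 0.0119 and 0.806 ± 0.00863, and its groups did not overlap. In the other direction, the adhesion molecule ALCAM had 2509 and 575 reads (0.229) with mean rates of 0.837 ± 0.0243 and 0.844 ± 0.0481. SSFA2 had 893 and 215 reads (0.241) with mean rates of 0.857 ± 0.0341 and 0.862 ± 0.0186, and ANLN, the actin-binding protein anillin, had 1932 and 553 reads (0.286) with 0.816 ± 0.0244 and 0.793 ± 0.0559.

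The same genes also held other exons, some of which passed the criteria for a change. The 1133 genes had 3961 other events in the table, the same rule having placed each of them outside the set. Of these, 989 had fewer than 200 reads in a group, 2660 had a control rate outside the window and 312 had a pooled difference of 0.05 or more, so the shares that follow are over events that the rule sorted and are descriptions. limma tested 780 of them and called 9 in 9 genes (1.15%, beside 1.54% of all tested events), 4 higher and 5 lower in RBM47 samples. By the criteria of an unadjusted Fisher p of at most 0.05 and a mean difference of at least 0.2, 35 of the 3961 passed (0.884%, beside 1.42% of all events), 19 higher and 16 lower, in 33 genes. The rates of all 9 limma calls were re-matched to their rows by the printed RBM47 average, and with the rows as deposited alone 0 were called.

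In GIT2, a GTPase-activating protein of focal adhesions, both exons could be placed on GRCh37. The 150-base exon at chr12:110388972-110389121 (coding, minus strand) was at 0.809, 0.775 and 0.805 in control and 0.775, 0.832 and 0.806 in RBM47 samples. The 90-base exon at chr12:110383065-110383154 (coding, minus strand) was at 0.806, 0.836 and 0.879 in control and 0.396, 0.294 and 0.423 in RBM47 samples. The first pair of groups overlapped, and the second differed by -0.469 (adjusted p = 0.00239) with all 3 RBM47 samples below all 3 control samples. The splice sites of both are shown because they stand for an exon within the limit and a called exon of 1 gene. Exon bases are in capitals.
GIT2 150-base exon acceptor: ttttcccaatttatttttagAGC
GIT2 150-base exon donor: AAGgtaaca
GIT2 90-base exon acceptor: gtttctctttcccattccagATC
GIT2 90-base exon donor: AGGgttaag

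In the other genes described a called exon also stood beside an exon within the pooled limit, with a contrast that varied. CTNND1, the p120 catenin of adherens junctions, had an exon within the limit with means of 0.733 ± 0.0367 and 0.776 ± 0.0117. Another exon rose from 0.0224 ± 0.0104 to 0.249 ± 0.0348 (limma adjusted p = 0.00145). In PICALM the called exon rose from 0.681 ± 0.0257 to 0.892 ± 0.00441 (adjusted p = 0.00145). NUMA1, a spindle pole protein, had a called exon that fell from 0.562 ± 0.0104 to 0.313 ± 0.0144 (limma adjusted p = 0.00145). Of its events within the limit, the one with the most reads had means of 0.0453 ± 0.0199 and 0.0488 ± 0.0172. The pooled control rate of that event was 0.396.

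Of 4 further genes, FAM49B, PHLDB1 and LIMCH1 had called exons with differences of -0.215, -0.238 and -0.228 (limma adjusted p = 0.00383, 0.0402 and 0.0423). Their exons within the pooled limit had mean sample differences of 0.0547, 0.0300 and -0.000763, that of FAM49B being over 0.05. The LIMCH1 exon within the limit was at 0.904 and 0.914 in RBM47 replicates 1 and 3 and at 0.753 in replicate 2. Control samples lay at 0.844 to 0.865, so its difference without replicate 2 was 0.0511. C11orf73 stood apart from these genes. Its called event rose from 0.0249 ± 0.0125 to 0.244 ± 0.107 (limma adjusted p = 0.0243). That difference of 0.219 was 0.161 without RBM47 replicate 2, below the 0.2 that a call needs. The exon within the limit shared the same outer span. It was at 0.0149, 0.00271 and 0 in control and 0.0625, 0.169 and 0.0374 in RBM47 samples. Those groups did not overlap, although the pooled rates of 0.107 and 0.149 met the limit. Whether the difference of 1 exon differs from that of the other was not tested in any of these genes.

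**Figure D5:**
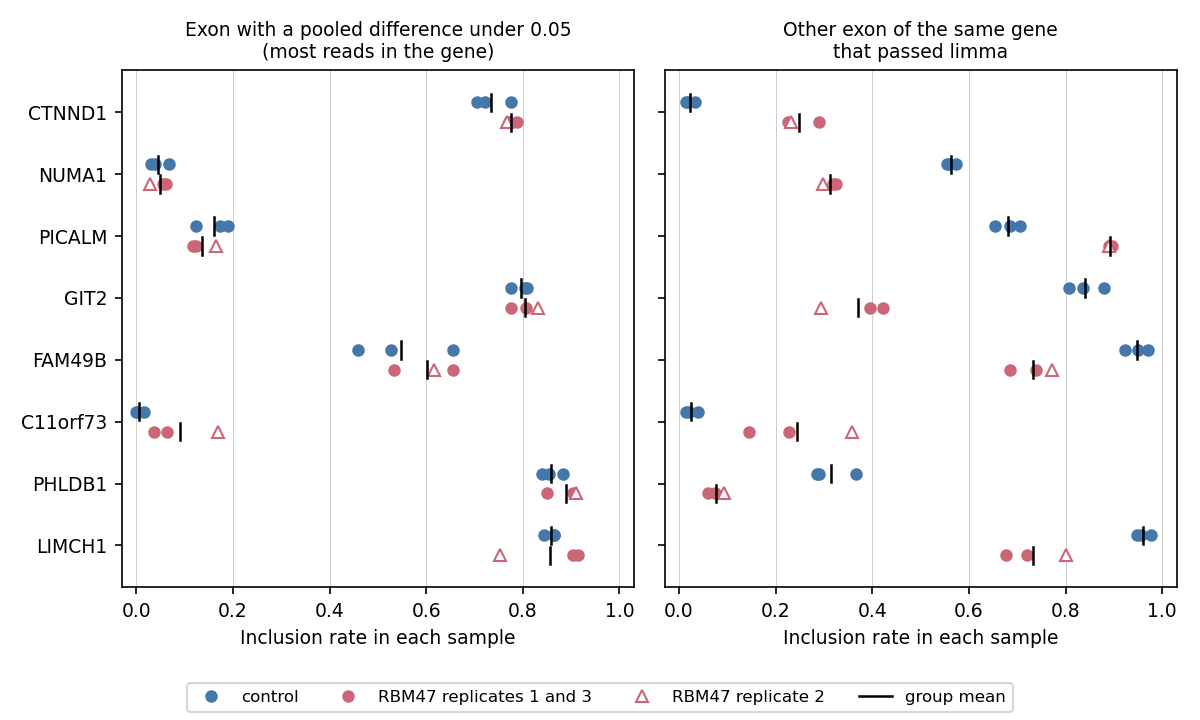
Inclusion rate of each sample (horizontal axes, fraction) for 8 of the 9 genes in which limma called another exon: the exon with a pooled difference under 0.05 that had the most reads (left) and the called exon (right). Blue points are control samples, red points RBM47 replicates 1 and 3, open triangles RBM47 replicate 2 and black lines group means. On the right the groups are apart in every gene drawn, and on the left they are apart in C11orf73.

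Sequence features could be read for only part of the exons. An exon was placed where the annotation of the gene held exactly 1 exon whose neighbours spanned the same length as the event. Events that shared their outer span with another event of the gene were left out. The shift in position also had to be shared with a nearby placed event. This was so for 456 of the 1666 (27.4%). A statement on the length or frame of the whole set is therefore void, and the values hold for the placed exons alone. Their median length was 105 bases. A length divisible by 3 was found for 276 of the 456 (60.5%, 95% Wilson interval 56.0% to 64.9%), against 62.5% of the 277 placed exons with a pooled difference of 0.05 or more. Among 3616 placed, deeply read exons with a control rate of 0.90 or more it was 43.0%. The placed alternative exons with a pooled difference under 0.05 and those at 0.05 or more thus had similar shares. The nearly always included exons had a lower one. The run TTTTT was searched on the strand of the gene alone. In the 100 intron bases upstream it occurred in 33.3% of the 456, against 38.3% of the 277 and 41.6% of all 8464 placed exons. In the 100 bases downstream it occurred in 29.2%, against 33.2% and 29.8%. These shares were not tested. Such a match is a description of the letters and not a binding site.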

How the data were processed

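RNA was polyA-selected and sequenced from 6 samples of MDA-MB-231-BrM2a cells, 3 control and 3 RBM47, grouped and numbered by their labels. The submitters' processing notes name TopHat, and the study's methods name STAR with hg19 for RNA-seq of the cell lines. The build of the table's coordinates is not given in the sources used here, so positions are given only for exons placed on GRCh37.

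The authors deposited 1 row per cassette exon event. The authors gave an inclusion rate per sample as a fraction, computed before deposit as including junction reads divided by these plus 2 times the skipping reads. The table also holds the read counts that the authors deposited as totals per group, 26470301 control and 24092775 RBM47 reads over the events used. Counts per sample were not used here, so a rate in 1 sample has no interval. The deposited Fisher p-value, odds ratio and difference columns are the authors' own comparison and were not used.

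Of 24725 rows, 77 exact repeats were dropped. In 1392 rows the sample rates did not average to the printed group averages within 3e-09. For 1122 the rates of another row matched both averages, and for 255 the RBM47 average alone, and these rates were used. The other 15 rows (4 ambiguous, 11 unmatched) had none. Of the 1666 exons, 1598 were aligned as deposited and 68 were re-matched by both averages. The pooled rate is the same fraction computed from the group totals.

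limma 3.58.1 (R 4.3.3) took arcsine square root rates and let the variance follow log2 reads. Only the 5991 events whose mean over all samples lay between 0.1 and 0.9 were tested, and Benjamini-Hochberg adjustment ran over them. It was tested on simulated data first. Fisher's exact test (two-sided, scipy 1.17.1) used the group totals. Figures were drawn with matplotlib 3.10.9. Rates are given as mean ± SD of 3 samples. Same-numbered samples did not deviate together (r = -0.000317, -0.00711 and 0.0483 across exons), so they were not treated as pairs.

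The exons, the gene lists and the form of the limma test were chosen with earlier results of these data known. Named exons were those with the most reads (8), a pooled control rate nearest 0.5 among exons of 1000 reads or more per group (6), the smallest and the largest SD (6 each), those in well-known alternative genes, in genes with another event past the Fisher criteria (8), with the highest and lowest read ratios (4 each), nearest the limit of 0.05 (3 inside and 3 outside), and the 2 to 4 with the most reads of each list. The limma calls in the same genes, the genes with the most such exons, the exon with the largest difference of a list, and NABP1 were named after their values were seen. The values of a few exons that these rules name are not reported here. Read ratios are not normalized.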

Additional observations from a re-analysis of the deposited data

How the results depend on the processing

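The number of exons with a pooled difference under 0.05 depended on the limits: 829 with at least 500 reads a group, 691 with control rates of 0.20 to 0.80, 3366 with 0.05 to 0.95, and 793 under a difference of 0.02. It stayed within 1.5 times of 1666 under the other alternatives, including 1570 by mean sample rates and 1234 by both measures (added after seeing the data). limma called 56 events over the whole table without the variance trend, 46 with all rates tested, 1 from rows aligned as deposited, and 49 to 69 with each replicate left out, the 3 furthest being control replicate 3 (49), control replicate 1 (60) and RBM47 replicate 1 (61), against 92. Among the exons described here it called 0 to 1 with a replicate left out and 0 otherwise. Among other events of their genes it called 2 without the trend, 5 with all rates tested, 0 from aligned rows, 23 with no minimum difference and 6 to 13 with a replicate left out (6 without control replicate 3), against 9. Fisher criteria gave 210 events with adjusted p-values, 894 at a difference of 0.1 and 76 from aligned rows, against 350, and in the same genes 141 at 0.1 and 7 from aligned rows, against 35. The median RBM47 SD was 0.0226 to 0.0320 with a replicate left out, the lowest without RBM47 replicate 2, against 0.0353. The share of placed exons with a length divisible by 3 was 65.2% in coding exons and 65.9% at 500 reads or more, against 60.5%. With a replicate block limma called 69 events, 64 of them shared with the 92, and the counts among the exons described here (0) and among other events of their genes (9) did not move. The numbers share no pairing, so these counts are given only here. Of 770 alternatives for the mean differences of 110 named exons, 16 moved by more than the spread between replicates, all with pooled rates in place of sample rates, and of 660 for their SDs 1 did. The 2 exons called with a replicate left out, LUC7L3 and RPS10, had pooled differences of the opposite sign (-0.0186 and -0.0447).

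Reads per sample are unknown, and 3 samples a group left a median half-width of 0.0841 on a difference in inclusion. The main limits are that pooled rates often exceeded the sample rates and that the RBM47 group is 1 clone. Further limits are that 1392 rows were misaligned as deposited and that most exons could not be placed on the genome.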
